A study of Mus musculus with 4 samples.

Results

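The 7 immunoglobulin heavy constant genes Ighm, Ighd, Ighg3, Ighg1, Ighg2b, Ighg2c and Igha, together with Jchain, were measured in single immune cells of mouse liver. They were taken by gene symbol from the deposited gene lists and are 8 of 32344 listed genes, of which 15785 had a unique molecular identifier (UMI, 1 counted molecule) in a cell. The GS library came from mice labelled GS(+/delta)Hep, a heterozygous deletion of glutamine synthetase in hepatocytes. The URI library came from mice labelled URI(+/delta)Hep, with URI, a prefoldin-like protein, in place of glutamine synthetase. The 2 WT libraries, WT 1 and WT 2, came from wild-type mice. All 4 libraries, WT included, came from mice given tamoxifen for 1 week, and each pooled CD45+ liver cells of 5 mice, so GS and URI have 1 sample each and mice cannot be told apart within a library. The promoter that drives the recombinase, the sex and the age of the mice are not given in the sources used here. A barcode with at least 500 UMIs was taken as a cell, a cell with at least 3 Jchain and 1 Xbp1 UMIs as a plasma cell, and any other cell with at least 2 UMIs of Cd79a and Cd79b together as a B cell. Of 32878 cells, 132 were plasma cells and 9167 were B cells.

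A heavy constant gene sets the class (isotype) of an antibody. A naive B cell makes Ighm and Ighd transcripts from 1 rearranged heavy chain locus by alternative processing of a shared precursor RNA. Class switch recombination deletes the DNA between switch regions and places Ighg3, Ighg1, Ighg2b, Ighg2c or Igha next to the variable region, and a plasma cell then makes and secretes that class in bulk. Jchain encodes the joining chain that links IgM and IgA monomers into polymers, the form that the polymeric immunoglobulin receptor carries across epithelia and, in rodents, across hepatocytes into bile.

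In the GENCODE vM21 annotation of GRCm38 the 7 heavy constant genes lie on the minus strand of chromosome 12, in the order of the locus. Ighm spans positions 113418558 to 113422730, Ighd 113406604 to 113416324 and Ighg3 113356224 to 113361232. Ighg1 spans 113325240 to 113330523, Ighg2b 113302965 to 113307933, Ighg2c 113285325 to 113288932 and Igha 113254830 to 113260236. Jchain lies on the minus strand of chromosome 5, positions 88519809 to 88527891. The assay hybridises probes to fixed RNA and counts ligated probes, so its ability to keep the Ighg genes apart depends on their sequence, and the probe sequences were not used here. In their GENCODE transcripts the 6 pairs of Ighg genes were 75.8% to 84.4% identical and shared exact runs of 28 to 78 bases, while the other 15 pairs of heavy constant genes were 58.9% to 73.8% identical with runs of 10 to 15 bases. The longest shared runs are printed because a probe inside one could not tell its genes apart; in the first, capitals mark the 41 bases that Ighg3 also holds.

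Ighg2b and Ighg2c, 78 bases: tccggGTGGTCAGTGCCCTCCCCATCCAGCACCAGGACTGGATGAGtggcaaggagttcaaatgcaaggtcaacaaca
Ighg1 and Ighg2b, 37 bases: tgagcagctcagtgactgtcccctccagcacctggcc
Ighg3 and Ighg1, 31 bases: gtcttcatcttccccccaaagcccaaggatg

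The RefSeq promoter of Jchain, the one gene of the set on another chromosome and the gene most like Igha across cell classes (below), is chr5:88527848-88528147 on the minus strand of GRCm38.p6, from 250 bases before to 50 after the start. Capitals mark ACGT, the core of the element that the plasma cell factor XBP1 binds, 68 bases before the start.

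Jchain promoter: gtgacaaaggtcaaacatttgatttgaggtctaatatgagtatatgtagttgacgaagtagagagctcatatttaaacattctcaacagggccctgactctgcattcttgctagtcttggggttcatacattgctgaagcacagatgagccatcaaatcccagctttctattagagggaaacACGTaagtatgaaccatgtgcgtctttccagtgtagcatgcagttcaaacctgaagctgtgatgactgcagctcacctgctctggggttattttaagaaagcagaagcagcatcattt

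ACGT on either strand is in 10162 of 32851 promoters of this length (30.9%). ATGCAAAT, the octamer of immunoglobulin promoters, is not in this window on either strand, against 1.74% of all promoters. CAGCTG, a form of the E-box, is not in it either, against 16.3%. Other forms of the E-box were not counted.

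The libraries held 39451266 UMIs for GS, 51920505 for URI, and 37783065 and 24041049 for WT 1 and WT 2, of which cells of at least 500 UMIs held 93.9% to 95.6%. Cells numbered 7846 in GS, 9096 in URI, and 8483 and 7453 in WT, with a median of 4448, 4973, 3763 and 2659 UMIs, so WT 2 is the shallowest. The libraries were multiplexed: pairs of libraries shared 1480 to 2076 droplet barcodes, and no full barcode. Levels are given as CPM, a gene's UMIs in 1000000 UMIs of the cells summed. Glul, which encodes glutamine synthetase, had 73.6 CPM in GS, 80.7 in URI, and 70.7 and 83.9 in WT, and Uri1 had 91.1, 94.9, 93.5 and 82.2 CPM in the same order; the deletions are in hepatocytes, so the sorted immune cells do not check the labels. Confidence intervals below are exact Clopper-Pearson 95% intervals, and like the lower limits from counts of 0 they cover counting error only.

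The cells chosen by the rules were first set against markers. B cells numbered 1740 in GS (22.2% of cells, 21.3% to 23.1%), 2788 in URI (30.7%, 29.7% to 31.6%), and 2437 (28.7%, 27.8% to 29.7%) and 2202 (29.5%, 28.5% to 30.6%) in WT. Clustering left out cells beyond quality limits or marked as doublets by Scrublet, which were 10.4% of B cells in GS, 9.86% in URI and 9.04% in WT 2. In WT 1 Scrublet marked no cell. Of all B cells 67.3% in GS, 65.5% in URI, and 67.8% and 80.3% in WT were in 3 clusters that carry B cell markers. The B cells left out of clustering are counted as outside those clusters. B cells outside those clusters had 260 CPM of Ms4a1, the B cell surface protein CD20, in GS, 186 in URI, and 244 and 152 in WT, against 807, 691, 971 and 474 CPM inside. They also had 1080, 933, 1108 and 434 CPM of the T cell receptor gene Trac, against 25.0, 30.3, 27.8 and 13.8 CPM inside, and their median Cd79a and Cd79b sum was 3, 3, 4 and 4 UMIs, against 19, 21, 18 and 7. The label B cell therefore holds for the larger share of the cells the rule takes, and 746 cells in GS, 1001 in URI, and 705 and 679 in WT stood 1 UMI short of it.

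Plasma cells numbered 41 in GS (0.523%, 0.375% to 0.708%), 16 in URI (0.176%, 0.101% to 0.285%), and 59 (0.696%, 0.530% to 0.896%) and 16 (0.215%, 0.123% to 0.348%) in WT. The plasma cell markers that the rule did not use were present: Mzb1, an endoplasmic reticulum protein, had 4511 CPM in GS, 2269 in URI, and 2383 and 2252 in WT, and Tnfrsf17, the survival receptor BCMA, had 391, 236, 298 and 475 CPM. The cells split by size, however. Plasma cells of at least 9000 UMIs numbered 12, 14, 14 and 16, or 0.153%, 0.154%, 0.165% and 0.215% of cells, while 29 in GS, 2 in URI, and 45 and 0 in WT were smaller. The small barcodes held a median of 1302 UMIs in GS and 2128 in WT 1. In GS they had 2366 CPM of Mzb1 and 687 CPM of the neutrophil gene S100a8, against 4868 and 22.2 CPM in the large ones. In WT 1 they had 731 CPM of Mzb1 and 4311 CPM of S100a8, against 2991 and 24.1 CPM in the large ones. Most of that S100a8 came from 1 small barcode of 6714 UMIs in a neutrophil cluster, which held 337 S100a8 UMIs. No other small barcode of WT 1 held more than 9. Igha varied between small barcodes with a variance-to-mean ratio of 20.7 in GS and 33.5 in WT 1, against 2458 and 1219 between large ones. The median was 88 and 42 Igha UMIs in the small barcodes, against 3036.5 and 3030.5 in the large ones. As the ratio rises with the mean count, it does not show which barcodes are more alike. Results that changed without the small barcodes are given with that value; how these barcodes arose was not tested. Just outside the rule stood 40 cells in GS, 0 in URI, and 45 and 4 in WT with at least 3 Jchain UMIs and no Xbp1, and 56, 61, 39 and 60 with 1 or 2 Jchain UMIs and Xbp1.

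Ighm and Ighd were the constant genes of the B cells. Ighm had 6183 CPM in GS, 6344 in URI, and 6847 and 5426 in WT, with a UMI in 97.6% of B cells in GS, 97.7% in URI, and 97.7% and 98.2% in WT. Ighd had 2682 CPM in GS, 2272 in URI, and 2789 and 1438 in WT, with a UMI in 89.5%, 87.0%, 89.9% and 86.3% of B cells. WT 2 was the lowest library for both genes, and GS and URI lay between the WT libraries. Both genes had a UMI in the same cell in 88.7% of B cells in GS, 86.4% in URI, and 89.2% and 86.0% in WT. Thinned to 1000 UMIs per cell, the share with Ighm was 94.3%, 94.2%, 95.4% and 95.3%, and that with Ighd 81.6%, 78.1%, 83.9% and 72.1%. No single cell carried these genes: the top B cell held at most 0.528% of the Ighm UMIs of B cells and at most 0.513% of the Ighd UMIs. Inside the named B clusters Ighm had 8510, 8798, 9836 and 6806 CPM and Ighd 3804, 3220, 4136 and 1829 CPM, in the same order of libraries. Probe counts do not scale with transcript length and the number of probes per gene is not known here, so levels of different genes are set side by side without being ranked, and the membrane and secreted forms were not told apart.

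**Figure D1:**
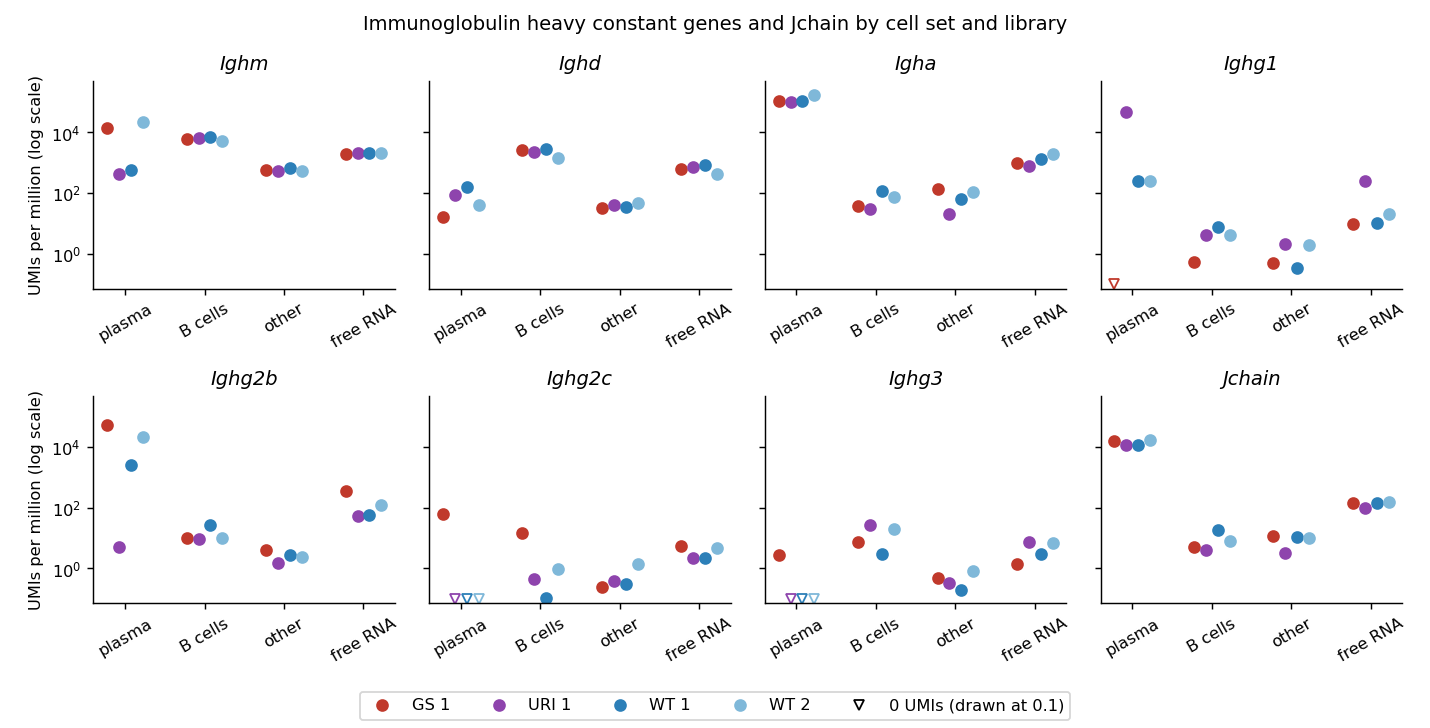
Level of each gene (CPM, log scale) in plasma cells, B cells, other cells and free RNA of the GS, URI, WT 1 and WT 2 libraries; 1 point is the sum over 1 library's cells, and an open triangle at the foot marks 0 UMIs. Igha and Jchain stand highest in plasma cells in all 4 libraries, Ighd in B cells, and Ighg1, Ighg2b and Ighm in plasma cells spread over orders of magnitude between libraries.

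No gene of the set passed the test in B cells against WT. With edgeR's quasi-likelihood test, adjusted by Benjamini and Hochberg's method for all genes tested, 0 of 11390 genes (0%) were called at an adjusted p under 0.05 in GS and 0 (0%) in URI, so 0 of 8 genes of the set in each. The test rests on 1 residual degree of freedom, from the WT pair. At an unadjusted p under 0.05 it gave 26 genes in GS, 3 of them of the set, and 30 in URI, 2 of them of the set; DESeq2 called 1 gene in GS and 0 in URI. The log2 fold change of Ighm was -0.02 (SE 0.53) in GS and 0.02 (SE 0.53) in URI, and that of Ighd 0.32 (SE 0.52) and 0.09 (SE 0.53). Each of these 4 values changed sign when 1 WT library was left out, and none was larger than its error.

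Ighd made up 30.3% of the Ighm and Ighd UMIs of B cells in GS, 26.4% in URI, and 28.9% and 20.9% in WT, so the WT libraries stood further apart than GS or URI stood from WT 1. The share differed between clusters of B cells. In cluster 18, with 53 B cells in GS, 84 in URI, and 39 and 56 in WT, Ighd made up 12.6%, 8.07%, 8.42% and 6.83%, and Ighm had 12152, 14292, 16040 and 10270 CPM. The leading genes of this cluster include Bhlhe41, a transcription factor known from mouse B-1 cells, and Il5ra, the interleukin 5 receptor that B-1 cells carry. In the 2 large B clusters, numbered 0 and 3, Ighd made up 31.3% and 33.2% in GS, 28.1% and 28.7% in URI, 27.9% and 30.9% in WT 1, and 22.2% and 25.4% in WT 2. The libraries filled those clusters unequally, with 75.0% of WT 2 B cells in cluster 0 and 59.0% of WT 1 B cells in cluster 3. As the cells were clustered on expression, these are descriptions.

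Ighm was also counted in cells that were neither B nor plasma cells. It had 580 CPM in GS, 518 in URI, and 657 and 516 in WT, with a UMI in 69.2%, 73.2%, 70.3% and 58.8% of these cells, or 36.6%, 35.8%, 40.1% and 31.1% after thinning; their median was 4693, 5389, 4109 and 2855 UMIs, against 3812, 4298, 3027 and 2214 in B cells. Ighd had 32.7, 40.3, 35.5 and 46.7 CPM there. Free RNA, counted in barcodes under 100 UMIs, had 1890, 2102, 2166 and 2053 CPM of Ighm and 624, 699, 815 and 436 CPM of Ighd, a ratio of 3.03 in GS, 3.01 in URI, and 2.66 and 4.70 in WT. The ratio in cells depended on the class. B cells had 2.24 to 3.73 Ighm UMIs per Ighd UMI over the 4 libraries, neutrophils 3.87 to 9.94 and monocytes 4.31 to 6.32. NK cells had 11.5 to 13.5, and the T cell classes had 21.4 to 23.9 in CD8 T cells, 20.8 to 60.1 in CD4 T cells, 14.1 to 44.4 in regulatory T cells and 20.5 to 61.9 in NKT cells. Ighm in CD8 T cells had 654 to 862 CPM, against 146 to 422 in neutrophils, while Cd79a, which every B cell carries, had 8.75 to 28.6 CPM in CD8 T cells and 2289 to 3810 CPM in B cells. The ratio was above that of free RNA in all 4 libraries in neutrophils and monocytes as well as in NK cells and each T cell class; which RNA or probe gave these counts was not tested. Shares of non-B cells with Ighm are thus not read here as expression of IgM.

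**Figure D2:**
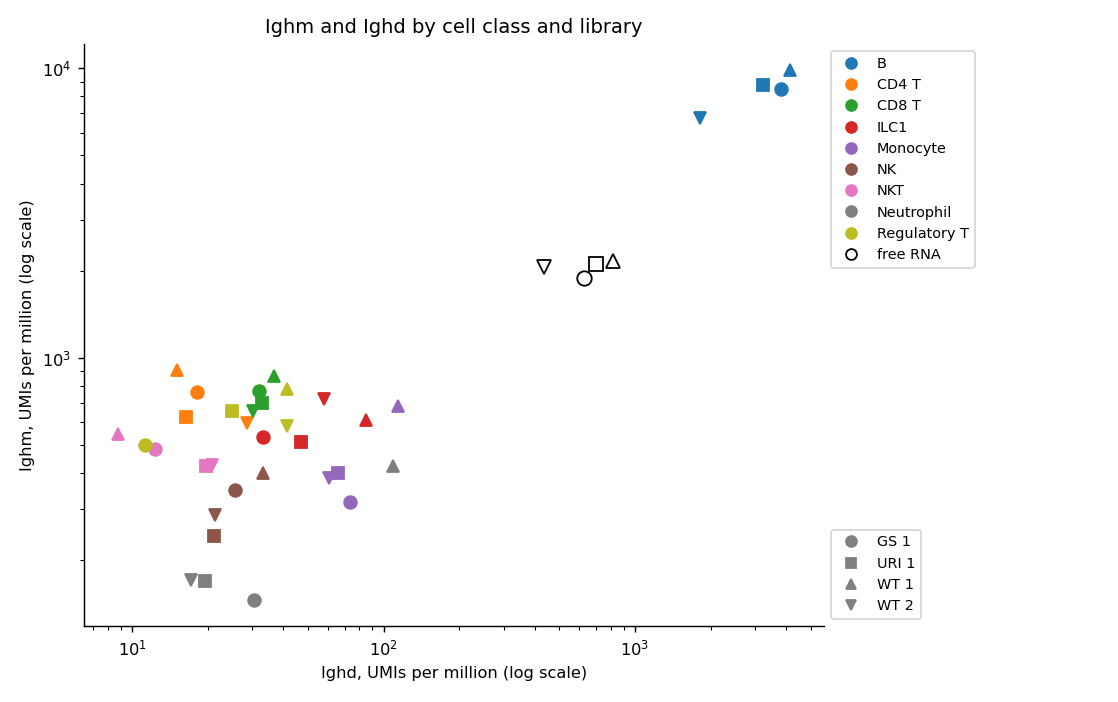
Ighm against Ighd (CPM, both axes log) in 9 cell classes named from markers and in free RNA, with 1 point for each class and library, colour for the class and shape for the library. B cells stand at the upper right, free RNA midway, and T cell classes lie at low Ighd with 498 to 906 CPM of Ighm in CD4, CD8 and regulatory T cells.

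Plasma cells, chosen by Jchain and Xbp1, were mostly Igha cells in every library. The shares below hold for cells with at least 3 Jchain UMIs, and plasma cells with fewer are not counted in them. Igha, the constant gene of IgA, the class of mucosal and biliary antibody, had 105815 CPM in GS, 104439 in URI, and 106521 and 179400 in WT, so it supplied at least 1 in 10 UMIs. A plasma cell was given to the heavy constant gene with the most UMIs in it. Igha dominated 37 of 41 plasma cells in GS (90.2%, 76.9% to 97.3%), 14 of 16 in URI (87.5%, 61.7% to 98.4%), and 57 of 59 (96.6%, 88.3% to 99.6%) and 14 of 16 (87.5%, 61.7% to 98.4%) in WT, or 122 of 132 in all (92.4%, 86.5% to 96.3%). Among cells of at least 9000 UMIs it dominated 8 of 12 in GS (66.7%, 34.9% to 90.1%), 12 of 14 in URI (85.7%, 57.2% to 98.2%), and 13 of 14 (92.9%, 66.1% to 99.8%) and 14 of 16 in WT. The GS share thus depended on the 29 small barcodes, each of them dominated by Igha, and all intervals overlapped. The share of a library's Igha UMIs in plasma cells was 90.1% in GS, 97.3% in URI, and 93.9% and 94.6% in WT, and the top cell held 16.9%, 21.1%, 15.8% and 17.95%.

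In the median plasma cell 1 gene held at least 90% of heavy constant UMIs. The dominant gene held a median of 99.6% of a cell's heavy constant UMIs in GS, 99.7% in URI, and 90.2% and 99.9% in WT, and 99.9%, 99.6%, 99.0% and 99.9% in cells of at least 9000 UMIs. Heavy constant UMIs made up a median of 8.64%, 12.6%, 2.53% and 19.6% of a plasma cell, and 50.3% of one cell in WT 2. The dominant gene held under 90% in 0 of 41 cells in GS, 1 of 16 in URI, and 27 of 59 and 2 of 16 in WT; the 27 in WT 1, at 71.8% to 88.1%, were all small barcodes. One URI cell of 25654 UMIs held 18 Ighm and 18 Igha UMIs, a tie, and one WT 1 cell of 13717 UMIs held 18 Igha UMIs beside 124 Jchain UMIs and 1307 UMIs of the kappa light chain gene Igkc.

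**Figure D3:**
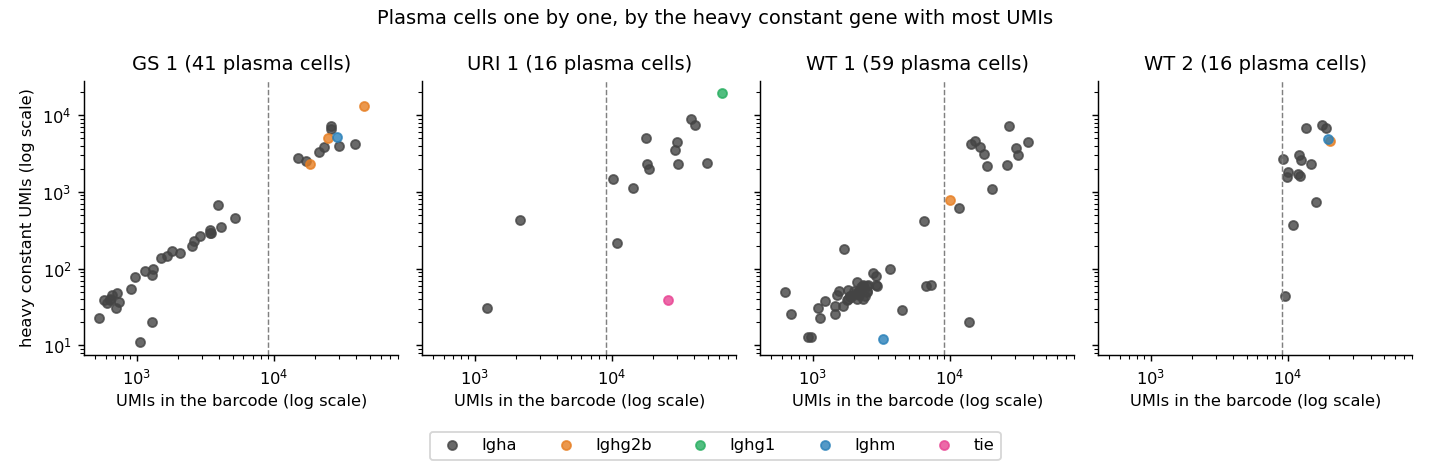
Heavy constant UMIs against all UMIs of each plasma cell (both axes log), with 1 panel for each of the GS, URI, WT 1 and WT 2 libraries, colour for the dominant gene and a dashed line at 9000 UMIs. Igha cells fill every panel, Ighg2b cells number 3 in GS, 1 in WT 1 and 1 in WT 2, and the small barcodes left of the line belong to GS and WT 1 but for 2 in URI.

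Cells of other classes were few, and in all but 1 case such a cell held most of the UMIs of its gene in plasma cells or shared them with 2 others of its class. In GS, 3 Ighg2b cells held 13320, 5091 and 2316 Ighg2b UMIs, and 1 Ighm cell held 5075 Ighm UMIs. In URI, 1 Ighg1 cell held 19224 Ighg1 UMIs out of 63607 UMIs in the cell. In WT 1, 1 Ighg2b cell held 739 Ighg2b UMIs and a small Ighm cell held 9 of 237 Ighm UMIs, and in WT 2 an Ighg2b cell held 4564 Ighg2b UMIs and an Ighm cell 4870 Ighm UMIs. Plasma cell Ighm accordingly had 13907 CPM in GS, 427 in URI, and 598 and 22795 in WT, and the top cell held 99.2%, 28.2%, 20.7% and 97.6% of it. GS lay between the WT libraries and URI just below WT 1.

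Ighg1, the IgG class most tied to T cell help with interleukin 4, had 0 UMIs in GS plasma cells, 48574 CPM in URI, and 252 and 256 CPM in WT. GS and URI lay outside the WT pair on opposite sides. Of all Ighg1 UMIs in URI cells, 98.8% sat in the top cell, against 11.1% in GS and 39.4% and 49.6% in WT. In WT the Ighg1 UMIs came from 2 plasma cells (100 UMIs) in WT 1 and 1 (56 UMIs) in WT 2, and the top cell in each was an Igha cell. Against a lower limit of 3 UMIs (8.15 CPM) in GS, Ighg1 was at least 30.9-fold lower in GS than in WT 1 and at least 31.4-fold lower than in WT 2.

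Ighg2b, a complement-fixing IgG class, had 56706 CPM in GS plasma cells, 5.03 CPM (2 UMIs) in URI, and 2693 and 21141 CPM in WT. GS lay above and URI below both WT libraries. The top cell held 63.2% of the Ighg2b UMIs of all cells in GS, 20.3% in URI, and 52.8% and 96.5% in WT. Ighg2b in URI was 536-fold lower than in WT 1, with a counting interval of 148 to 4430, and 4207-fold lower than in WT 2, with a counting interval of 1164 to 34745.

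Ighg2c, the class that C57BL mice have in place of IgG2a, had 62.5 CPM in GS plasma cells and 0 UMIs in URI and both WT libraries; its 23 UMIs in GS were in 1 cell dominated by Igha. Another single GS cell, a B cell by the rule with 21546 UMIs, held 114 Ighg2c UMIs and no other heavy constant UMI. It had no Jchain UMI and was in cluster 15, described below. Ighg3, an IgG class made to carbohydrate antigens in the mouse, had 1 UMI in GS plasma cells and 0 in URI and WT, which allows up to 7.54 CPM in URI, and 7.56 and 13.7 CPM in WT. In B cells Ighg3 had 7.39 CPM in GS, 26.4 in URI, and 2.96 and 19.8 in WT, with 21 of 58 UMIs in the top cell in GS, 139 of 361 in URI, and 4 of 27 and 6 of 121 in WT. Ighe, the gene of IgE, had 1 UMI in all libraries together.

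**Figure D4:**
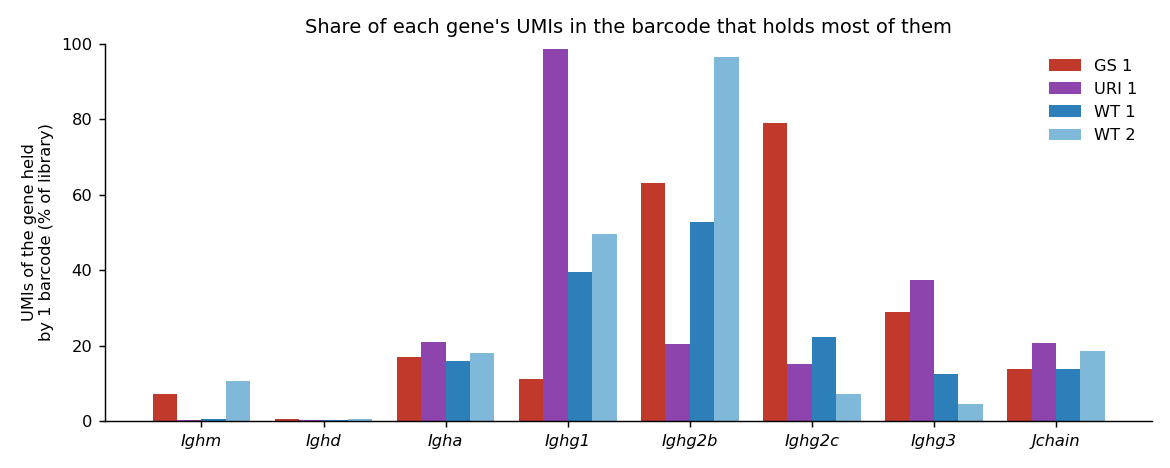
Share of each gene's UMIs (percent, cells of at least 500 UMIs) held by the single cell with the most, with bars for the GS, URI, WT 1 and WT 2 libraries. Ighd stays under 0.5% in every library, while 1 cell holds 98.8% of Ighg1 in URI and 96.5% of Ighg2b in WT 2.

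Tested over all genes in plasma cells, 5 of 7287 genes (0.0686%) were called in GS against WT and 5 (0.0686%) in URI against WT. In GS, 1 of the 7 genes of the set that passed the filter on low counts was called, and in URI 2 of 7; Ighg3 did not pass. Ighg1 fell in GS, with a fitted log2 fold change of -9.48 (SE 1.79, edgeR adjusted p = 0.0287), which depends on the prior count because GS held no UMI; with DESeq2 the adjusted p was 0.149. Ighg1 rose in URI by 7.47 (SE 0.91, edgeR adjusted p = 3.77e-05). Without the top barcode of each library, the one with the most UMIs of the 8 genes together, the value was 0.06. This took the Ighg1 cell out of URI, but in WT 1 and WT 2 an Igha cell with 0 Ighg1 UMIs. The WT cells with 71 and 56 Ighg1 UMIs stayed. Ighg2b fell by 11.32 in URI (SE 1.78, edgeR adjusted p = 0.00243), and the fitted value ran to -12.2 without WT 1 and -8.93 without WT 2, neither of which leaves a degree of freedom for a test. The fitted log2 fold change of Igha was -0.35 (SE 0.91) in GS and -0.60 (SE 0.92) in URI, and that of Jchain 0.25 (SE 0.82) and -0.39 (SE 0.84), all smaller than their errors. Ighm was at 0.24 (SE 1.10) in GS and -5.01 (SE 1.47, edgeR adjusted p = 0.657) in URI. Among plasma cells of at least 9000 UMIs it was called in URI (-5.00, edgeR adjusted p = 0.00769), which puts 3 genes of the set past the threshold there. In those cells Ighm had 431 CPM in URI, 428 in WT 1 and 22795 in WT 2. URI was thus near WT 1, and a single WT 2 cell held 97.6% of the Ighm UMIs of that library's plasma cells.

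Over all cells of a library, 0 of 12819 genes (0%) were called in GS and 2 (0.0156%) in URI. Ighg1 was 1 of these 2, with a log2 fold change of 6.27 (SE 0.44, edgeR adjusted p = 1.15e-06). It was -0.09 without the same top barcode of each library and 0.12 without plasma cells, neither called. Unadjusted, 71 genes in GS and 63 in URI had p under 0.05, and DESeq2 called 2 in GS and 5 in URI. In a library sum, fewer cells of a type and less RNA per cell cannot be told apart.

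Jchain was present in plasma cells of each class seen, which the rule fixes, as it takes only cells with at least 3 Jchain UMIs. It had 16143 CPM in GS plasma cells, 12147 in URI, and 11669 and 17304 in WT, which the rule fixes in part. Plasma cells held 94.0% of Jchain UMIs in GS, 96.6% in URI, and 91.2% and 94.5% in WT. In plasma cells of at least 9000 UMIs the median was 475 Jchain UMIs in GS, 207.5 in URI, and 316 and 158.5 in WT. The 47 Igha cells of that size held a median of 8.22 Jchain UMIs per 100 heavy constant UMIs (2.58 to 620), the 5 Ighg2b cells 11.7 (2.19 to 19.99), the 2 Ighm cells 6.57 and 12.1, and the Ighg1 cell 4.62. The Ighg2b cells, whose antibody is not joined by the J chain, overlapped the Igha cells in this ratio. Cells with fewer than 3 Jchain UMIs could not enter, and with 5 Ighg2b cells from 3 libraries no test was made. The Ighg1 cell of URI held 888 Jchain UMIs, next to 984 in the URI cell with the most Igha and 1038 in another URI Igha cell. The largest Ighg2b cell of GS held 874, next to 485 in the GS cell with the most Igha and 648 in another GS Igha cell. Jchain in B cells had 5.22 CPM in GS, 4.01 in URI, and 17.96 and 8.36 in WT, in 1.85% to 2.18% of cells. Other cells had 11.4, 3.24, 10.6 and 10.3 CPM in 1.75% to 2.83% of cells, so the B cell shares lay within their range.

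Few B cells carried a switched gene as their main constant gene. A B cell was called switched where 1 of the Ighg genes or Igha had at least 3 UMIs and more than Ighm and Ighd together. Such cells numbered 9 in GS (0.517%, 0.237% to 0.980%), 13 in URI (0.466%, 0.249% to 0.796%), and 32 (1.31%, 0.900% to 1.85%) and 16 (0.727%, 0.416% to 1.18%) in WT, and 7, 8, 28 and 13 of them were Igha cells. Of these switched cells 2 in GS, 0 in URI, and 15 and 1 in WT were in cluster 15, an unnamed cluster led by immunoglobulin and proliferation genes. Of the marker lists, that of plasma cells scored highest in this cluster (3.51, next 0.881), and most plasma cells of the rule were in it. The 15 switched cells in WT 1 had 874 to 3063 UMIs, and 13 of them had at least 3 Jchain UMIs. Without cluster 15 the share was 0.403% in GS (0.162% to 0.830%), 0.467% in URI (0.249% to 0.797%), and 0.706% (0.412% to 1.13%) and 0.682% (0.382% to 1.12%) in WT, and all intervals overlapped. Igha in all B cells had 36.8 CPM in GS, 30.4 in URI, and 114 and 76.2 in WT, in 6.15%, 7.75%, 7.02% and 9.81% of B cells. Other cells had 135, 20.3, 64.5 and 108 CPM of Igha in 7.50%, 8.44%, 6.41% and 11.7% of cells. They are no clean background, as they include barcodes just outside the plasma cell rule. Among classes named from markers, B cells had 28.2 CPM of Igha in GS, 31.5 in URI, and 37.3 and 67.5 in WT. NK cells had 8.68, 12.8, 18.5 and 39.6 CPM, and CD8 T cells 10.9, 43.6, 15.6 and 53.5 CPM. CD8 T cells in URI, NKT cells in WT 1 (47.6 CPM) and CD4 T cells in WT 2 (70.6 CPM) stood above B cells. Whether low Igha counts in B cells were background was not tested.

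Plasma cells were set against B cells of the same library to see which constant genes differ between the cell types. After scaling, 3229 of 10597 genes (30.5%) were called, 1632 higher (15.4%) and 1597 lower (15.1%) in plasma cells, in a fit with the library as a block and 3 residual degrees of freedom. Of the 7 heavy constant genes 6 were called, 4 higher and 2 lower. Igha rose by 11.59 log2 units (SE 0.43, edgeR adjusted p = 2.42e-12), Ighg2b by 8.98 (SE 1.69, edgeR adjusted p = 0.00054) and Ighg1 by 7.37 (SE 1.21, edgeR adjusted p = 0.000136). Igha was higher in plasma cells in 4 of 4 libraries, but Ighg2b and Ighg1 in 3 of 4 each. Ighg2b in URI had 2 UMIs and Ighg1 in GS 0 UMIs in plasma cells, too few to give a direction against the B cell level. Left-out libraries moved the Ighg2b value between 6.95 (without GS) and 10.86 (without URI), with 10.60 without WT 1 and 7.10 without WT 2, and the Ighg1 value between 5.71 (without URI) and 9.23 (without WT 1), with 8.30 without WT 2. Ighd fell by 4.62 (SE 0.30, edgeR adjusted p = 2.32e-09): plasma cells had 16.3 CPM in GS, 82.9 in URI, and 154 and 41.1 in WT. Ighg3 fell by 3.67 (SE 1.04, edgeR adjusted p = 0.0122), a call that was lost without URI (adjusted p = 0.185), without WT 2 (adjusted p = 0.0551) and with DESeq2 (adjusted p = 0.0539). Ighg2c rose by 2.23 (SE 0.80, edgeR adjusted p = 0.043) on the 1 GS cell named above, a call that was lost among plasma cells of at least 9000 UMIs (2.37, edgeR adjusted p = 0.0598). Ighm differed by -0.53 (SE 0.96, edgeR adjusted p = 0.721), at 0.80 without WT 1 and 0.85 without URI, none of them called. Jchain, which chose the cells, stood 11.36 log2 units higher.

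The genes of antibody secretion, a list of the factors and endoplasmic reticulum proteins that plasma cells need, were higher in plasma cells. Of 23 tested, 22 rose and 0 fell, with a median log2 fold change of 3.64 against -0.09 over all genes. Tnfrsf17 had 391 CPM in plasma cells and 0.127 in B cells of GS, 236 and 0.073 in URI, 298 and 0.219 in WT 1, and 475 and 0.164 in WT 2, a rise of 11.46 (edgeR adjusted p = 1.35e-15). Derl3, which moves misfolded proteins out of the endoplasmic reticulum, rose by 7.91, the elongation factor partner Eaf2 by 6.89 and Sdc1, the surface proteoglycan CD138, by 5.01. DESeq2, whose own scaling put the median of all genes at 0.16, gave 22 of 23 as well. The receptors that bind immunoglobulin went the other way: 0 of 7 rose and 7 fell, with a median of -4.53. Fcmr, the IgM receptor, had 2.72 CPM in plasma cells and 611 in B cells of GS, 15.1 and 617 in URI, 40.3 and 652 in WT 1, and 4.57 and 412 in WT 2, and fell by 4.69. Fcer2a, the low-affinity IgE receptor CD23, fell by 4.53, Cd22, an inhibitory lectin, fell by 4.86 and the Fc receptor-like gene Fcrl1 fell by 3.22.

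Of the follicular B cell list 0 of 11 rose and 9 fell (median -1.87), of which Cxcr5, the receptor that guides cells to follicles, fell by 3.80, Cd55, which limits complement, fell by 2.96 and the transcription factor gene Bach2 fell by 1.87. Of the B-1 list 8 of 12 rose and 1 fell (median 0.93), among them Ctla4 by 3.45, Anxa2 by 3.06, Itgam by 2.40 and Spn, the sialoprotein CD43, by 2.22; plasma cells also carry CD43. Of the class switching list 2 of 12 rose and 5 fell (median -0.42), of which the cytokine receptor genes Il4ra, Il21r and Tgfbr2 fell by 1.48, 1.40 and 1.12, and the signalling gene Stat6 fell by 0.73. Of the marginal zone list 2 of 8 rose and 3 fell (median -0.38), of which Mzb1 rose by 3.85 and Cr2, a complement receptor, fell by 3.51. Of the immature list 0 of 5 rose and 1 fell (median 0.24), and of the memory list 2 of 5 rose and 0 fell (median 0.17, and -0.09 with DESeq2), Tbx21 by 0.59 and Cd80 by 1.47. Against B cells of the named B clusters alone, 4 of 5 of the memory list rose and 1 fell (median 2.76), 9 of 12 of the B-1 list rose and 1 fell (median 2.26), and 1 of 5 of the immature list rose and 1 fell (median -0.22). With plasma cells of at least 9000 UMIs, 0 of 12 of the class switching list rose and 6 fell (median -0.72), 1 of 8 of the marginal zone list rose and 2 fell (median -0.78), and 1 of 5 of the memory list rose and 0 fell (median -0.15).

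B cells of low and high Ighd share were then compared within each library, as the surface IgM to IgD balance separates B cell subsets. B cells with at least 10 Ighm and Ighd UMIs numbered 1412 in GS, 2194 in URI, and 2010 and 1671 in WT, and the 25% with the lowest and the 25% with the highest Ighd share held 353, 548, 502 and 417 cells a side. The low side had a median Ighd share of 14.6% in GS, 12.2% in URI, and 14.3% and 7.69% in WT, and the high side 46.2%, 41.8%, 44.8% and 37.0%; the sides ended at 21.1%, 18.3%, 20% and 13.0% and began at 40.0%, 35.4%, 38.4% and 30.0%. The median depth was 4110, 4568, 3402 and 2378 UMIs on the low side, against 4053, 4424, 3057 and 2285 on the high side. The low side had fewer cells in the named B clusters (74.8%, 73.9%, 71.1% and 85.9%, against 85.0%, 85.6%, 84.7% and 86.3%) and more in cluster 18 (11.3%, 12.8%, 6.97% and 10.1%, against 0.567%, 0.182%, 0% and 0.240%). Of 9923 genes 673 (6.78%) were called, 371 higher (3.74%) and 302 lower (3.04%) on the low side. Without URI the count was 214 and without WT 1 it was 410; DESeq2 called 237 of 13740 (1.72%), and cells thinned to 1000 UMIs gave 76 of 7682 (0.989%). Within the named B clusters 482 of 8991 (5.36%) were called, 268 higher (2.98%) and 214 lower (2.38%), and without cluster 18 as well 156 of 8875 (1.76%), 60 higher (0.676%) and 96 lower (1.08%).

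Zfp318, which in the mouse is required for the long transcripts that give Ighd, fell on the low side. It had 269 CPM on the low side and 548 on the high side in GS, 280 and 584 in URI, 240 and 539 in WT 1, and 282 and 453 in WT 2, and fell by 1.04 log2 units (SE 0.07, edgeR adjusted p = 2.26e-05). The sides did not overlap over the 4 libraries. The log2 fold change was -0.81 within the named B clusters, -0.59 without cluster 18 as well, -0.61 after thinning and -1.03 with DESeq2, each of them called. Fcmr had 487 CPM on the low side and 940 on the high side in GS, 436 and 927 in URI, 450 and 1011 in WT 1, and 380 and 518 in WT 2, and fell by 0.98 (edgeR adjusted p = 0.00015). Il4i1, an L-amino acid oxidase induced by interleukin 4 in mouse B cells, fell by 1.57 (edgeR adjusted p = 1.06e-05), with 45.4 CPM on the low side and 143 on the high side in GS, 45.6 and 137 in URI, 58.9 and 141 in WT 1, and 25.0 and 86.0 in WT 2. Of the other genes named by size, Xkrx fell by 1.16, the kappa variable gene Igkv3-5 fell by 0.99, Wfdc17 and Dusp4 fell by 0.90 each and Dclk2 fell by 0.86.

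The largest rises on the low side were Lmna, the lamin A gene, by 1.88, Myb, a transcription factor of immature cells, by 1.65, Runx2 and the T cell gene Cd8a by 1.60 each, Ikzf2 by 1.44, the nuclease gene Dnase1l3 by 1.43 and the T cell gene Cd8b1 by 1.41. T cell genes thus rose on the side with more cells outside the named B clusters. Within the named B clusters Lmna rose by 2.42, Myb by 1.87, Dnase1l3 by 1.67 and Cd8b1 by 1.10, each of them called. Without cluster 18 as well, Lmna, Myb, Dnase1l3 and Cd8b1 were not called. Runx2, Cd8a and Ikzf2 did not pass the filter on low counts in either setting.

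**Figure D5:**
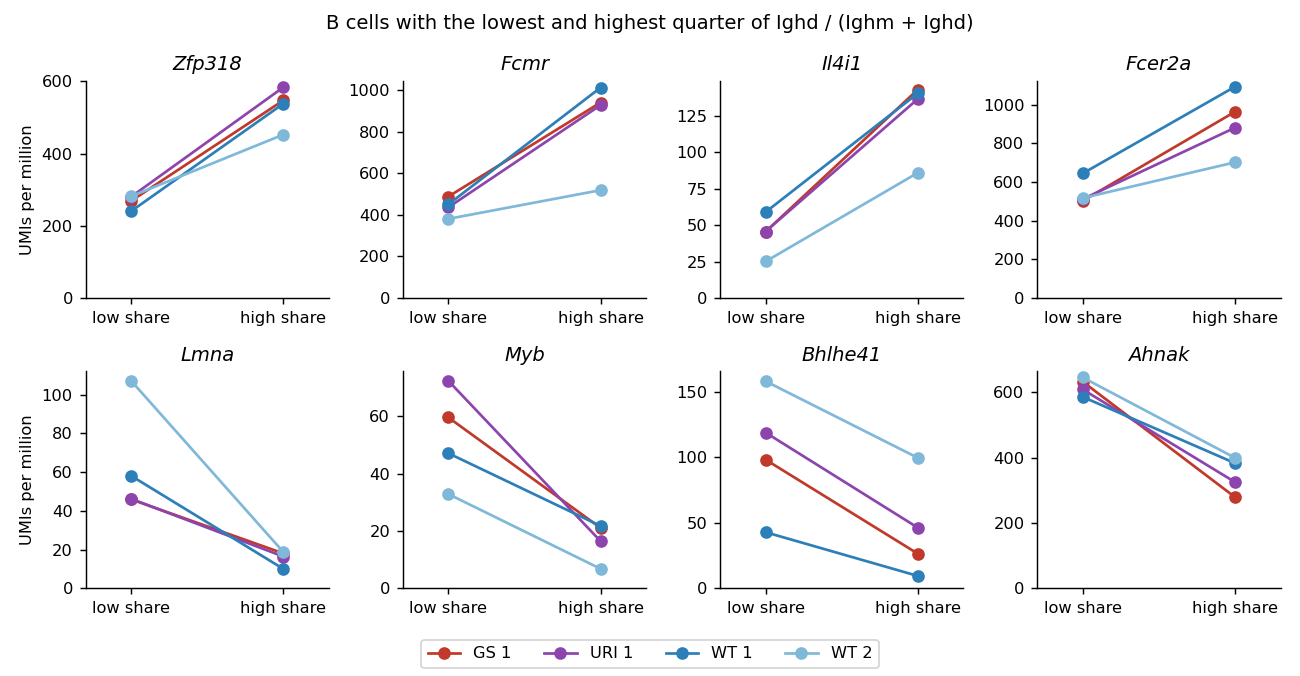
Level (CPM) of 8 genes in B cells of low and of high Ighd share, with 1 line for each of the GS, URI, WT 1 and WT 2 libraries joining its low and its high side. Zfp318, Fcmr, Il4i1 and Fcer2a are lower on the low side in 4 of 4 libraries, and Lmna, Myb, Bhlhe41 and Ahnak higher.

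Of the other constant genes, Ighg3 had 19.8 CPM on the low side and 1.20 on the high side in GS, 78.2 and 17.5 in URI, 2.54 and 1.67 in WT 1, and 22.7 and 22.1 in WT 2. The low side was higher in GS and URI, where few cells held most of the UMIs. The top pair of cells held 208 of the 252 low-side UMIs in URI and 26 of 38 in GS, against 5 of 6 in WT 1 and 10 of 29 in WT 2. Without the top 2 cells of each side the low and high sides had 6.30 and 0 CPM in GS, 13.8 and 12.7 in URI, 0.429 and 0.560 in WT 1, and 14.9 and 14.5 in WT 2. The rise of 1.63 (SE 0.38, edgeR adjusted p = 0.0245) was not called without URI (adjusted p = 0.464), with DESeq2 (adjusted p = 0.126), with a split at the median (adjusted p = 0.0616) or after thinning (adjusted p = 0.804), but was called within the named B clusters, at 2.01, and without cluster 18, at 1.58. Ighg2b had 26.6 CPM on the low side and 4.81 on the high side in GS, 2.48 and 1.49 in URI, 18.7 and 12.3 in WT 1, and 21.1 and 0.851 in WT 2, a rise of 1.65 (SE 0.45, edgeR adjusted p = 0.048). The top pair of low-side cells held 43 of 51 UMIs in GS, 3 of 8 in URI, 35 of 44 in WT 1 and 22 of 27 in WT 2. The call was lost with DESeq2 (adjusted p = 0.130), without GS (adjusted p = 0.207), without URI (adjusted p = 0.115), without WT 2 (adjusted p = 0.130) and with a split at the median (adjusted p = 0.247), and held within the named B clusters, at 2.59, and without cluster 18, at 1.81. Igha differed by 0.31 (SE 0.29), Jchain by 0.24 (SE 0.49) and Ighg1 by -0.47 (SE 0.56), none of them called, and Ighg2c did not pass the filter.

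Beside the shares of all genes given above, the lists moved as follows on the low side, against a median of -0.01 over all genes. Of the B-1 list 9 of 12 rose and 0 fell (median 0.78), with Ahnak higher by 0.81 and Spn by 0.74. Bhlhe41 rose too, with 98.2 CPM on the low side and 26.5 on the high side in GS, 119 and 46.3 in URI, 42.8 and 9.48 in WT 1, and 158 and 99.6 in WT 2, and Zbtb32 had 9.93 to 13.3 CPM on the low side and at most 1.12 CPM on the high side. Without cluster 18, whose leading gene is on this list, 3 of 8 rose and 0 fell. Of the follicular list 0 of 11 rose and 7 fell (median -0.31), of which Fcer2a, Cd55 and Bach2 fell by 0.78, 0.53 and 0.48; without cluster 18, 1 of 11 rose and 4 fell. Of the immunoglobulin receptors 1 of 7 rose and 4 fell (median -0.50), and Cd22 fell by 0.52 and Fcrl1 fell by 0.50 beside Fcmr and Fcer2a. Of the immature list 3 of 5 rose and 0 fell (median 0.68), Sox4 by 0.99 and Vpreb3, a chaperone of the surrogate light chain, by 0.28 beside Myb. Of the memory list 4 of 6 rose and 0 fell (median 1.17), Cd80 by 1.79, Itgax by 1.22, Nt5e by 1.12 and Zbtb20 by 0.57; without cluster 18, 0 of 2 passed the test. Of the marginal zone list 3 of 8 rose and 1 fell (median 0.30), with Fcrl5 higher by 1.76 and Cd9 by 0.75, while Cr2 fell by 0.74. Of the class switching list 0 of 12 rose and 3 fell (median 0.01), of which Il21r, Il4ra and Tgfbr2 fell by 0.43, 0.33 and 0.30. Of the antibody secretion list 1 of 22 rose and 2 fell (median 0.02), with Tent5c higher by 0.69, while Sdc1 fell by 0.91 and Pou2af1, a coactivator of immunoglobulin genes, fell by 0.27. Without cluster 18, 2 of 5 of the immature list rose and 0 fell (median 0.16), 1 of 6 of the marginal zone list rose and 0 fell (median 0.27), 0 of 6 immunoglobulin receptors rose and 2 fell (median -0.14), 0 of 12 of the class switching list rose and 1 fell (median -0.13), and 1 of 20 of the antibody secretion list rose and 0 fell (median 0.0016).

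Over the 36 sums of 9 cell classes in 4 libraries, Pearson's r of log2(CPM + 1) gives the genes whose pattern is most like each constant gene, as a description of classes that share libraries and depth. Ighd was most like Cd79b (0.98), Fcmr (0.98) and Ms4a1 (0.97), genes of the B cell surface. Ighm was most like Fchsd2 (0.96), Txndc16 (0.95) and Gga2 (0.94). Igha and Jchain were each the gene most like the other, at 0.80, and no class was named plasma. The Ighg genes were less well matched than Ighd and Ighm, with Ighg3 like Mybpc2 (0.88), Ighg2b like Cr2 (0.80), Ighg2c like Ppp1cb (0.79) and Ighg1 like Tbc1d17 (0.69).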

How the data were processed

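The deposited files hold whole-number UMI counts per gene and barcode, not normalised, which per the submitters' processing notes the authors made with Cell Ranger 8.0.0 on mm10. Droplets held CD45+ liver cells fixed and hybridised to a mouse probe set, per the labels' protocols. Counts were summed per library and cell type with Python 3.11.15 and tested with edgeR 4.0.16 (R 4.3.3; quasi-likelihood fit, TMM scaling, filterByExpr, Benjamini-Hochberg over all genes, called under 0.05), with DESeq2 1.42.0 as an alternative. Comparisons with WT have 1 residual degree of freedom, so their p-values measure only the spread of 2 WT libraries. Totals were 24041049 to 51920505 counts per library. CPM is a gene's UMIs in 1000000 UMIs of the cells summed. Clusters came from scanpy 1.11.5 (2000 variable genes, 30 components, 15 neighbours, Leiden resolution 1, with a floor of 250 genes and a ceiling of 10% mitochondrial UMIs as an alternative), named from fixed markers. Scrublet marked 4.64%, 4.79%, 0% and 4.68% of cells in GS, URI, WT 1 and WT 2 as doublets, and it did not work in WT 1. Doublets were left out of the clusters and cell classes and kept in the other main values. Named genes are the 8 of the set, up to 4 per list with the smallest adjusted p, the 8 largest rises and falls by Ighd share (mean of at least 20 CPM, same direction in 4 of 4 libraries) and the nearest genes by correlation. Genes and lists were chosen with earlier results of these data known. The split at 9000 UMIs, the limit to named B clusters and the removal of clusters 15 and 18 and of the top 2 cells of a side were chosen after seeing the data. The fits were tested on simulated data. Igha-dominant plasma cells could not be tested against others, since fewer than 2 libraries held 5 of each.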

Additional observations from a re-analysis of the deposited data

Results flagged for a closer look

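Ighm is the gene of the set whose difference between plasma cells and B cells ran in opposite directions in GS and URI. As log2 of the ratio of CPM + 1 it was at 1.17 in GS and -3.89 in URI, 5.06 apart, and the WT libraries lay on either side of 0 at -3.52 and 2.07. The difference between GS and URI was not tested, as each is 1 library. The top plasma cell held 99.2% of Ighm in GS, 28.2% in URI, and 20.7% and 97.6% in WT. Libraries in which the exact Poisson 95% interval of the plasma cell count held the B cell level were given no direction: for Ighg3 GS and WT 1, for Ighg1 GS, for Ighg2b URI, and for Ighg2c URI, WT 1 and WT 2.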

How the results depend on the processing

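No paired analysis was possible because GS and URI share only replicate number 1 with WT; the comparisons within libraries carry the library as a block. In B cells against WT, the count of genes of the set called was 1 for GS without a filter on low counts and 1 for URI when cells of both rules stayed B cells, against 0. In plasma cells GS gave 2 without the filter and 0 with DESeq2, against 1. Over all cells GS gave 2 without the filter and 1 with DESeq2, with 1000 UMIs or without doublets, against 0. URI gave 2 under each of these 4, and 0 without the top barcode (most UMIs of the set) or without plasma cells, against 1. Among all genes, DESeq2 called 1 of 11534 in plasma cells of GS. Over all cells it called 2 of 15785 in GS and 5 of 15785 in URI. For the other alternatives named so far the counts among all genes are not given, so these counts are not read as results about the set. Plasma against B cells gave 5 to 6 with libraries left out. The Ighd split gave 214 to 687 with libraries left out, against 673, and 360 with a Cd79a and Cd79b sum of 4, 347 split at the median, 237 with DESeq2, 76 thinned and 156 without cluster 18. The Igha share in GS was 66.7% at 9000 UMIs.

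Values that changed sign were not called before or after, but for Ighg1 in all URI cells (-0.093 without the top barcode), Myb (-0.44 without cluster 18), Cd8b1 (-0.11 thinned) and Igkv3-5 (0.014 with cells of both rules as B cells). Over the libraries left out, values in B cells ran from -0.145 (without WT 2) to 0.11 (without WT 1) for Ighm and from -0.054 to 0.82 for Ighd in GS, and in URI from -0.099 to 0.15 for Ighm and from -0.28 to 0.59 for Ighd. In plasma cells Igha ran from -0.79 (without WT 1) to 0.26 (without WT 2) and Jchain from -0.13 to 0.74 in GS, and in URI Igha from -1.04 to 0.019 and Jchain from -0.77 to 0.11. Jchain in all GS cells ran from -0.16 (without WT 1) to 0.25 (without WT 2). Ighm in plasma against B cells ran from -1.94 without WT 2 to 0.80 without WT 1 and 0.85 without URI. Ighm in B cells was at 0.044 without doublets, 0.019 with both rules and 0.0054 in B clusters in GS, and at -0.067 with both rules in URI. In all GS cells without plasma cells Igha was at 0.33, Jchain at -0.17 and Ighg2b at -0.41; with 1000 UMIs Jchain was at -0.011. The causes were not tested. With 1 GS and 1 URI library and 16 to 59 plasma cells, the number of libraries and cells limits precision.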
